A study of Mus musculus with 12 samples.

Results

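The ISG15 conjugation system was followed in RNA-seq of mouse bone marrow-derived macrophages (BMDMs) through 5 genes: the modifier Isg15, the enzymes Uba7, Ube2l6 and Herc6, and the protease Usp18. The genes were chosen by name for their roles and not by a measured value, but with earlier results of these data known. They are 5 of the 23997 genes in the deposited files, and all 5 were among the 10581 genes with at least 1 FPKM (fragments per kilobase of transcript, scaled to the size of the library) in at least 3 libraries, which were the genes tested.

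The study compared BMDMs from WT mice with BMDMs from Pim1-/- mice, either untreated or after 4 h with LPS, a bacterial ligand of TLR4, at 100 ng/ml. Each of the 4 groups (untreated WT, untreated Pim1-/-, LPS-treated WT and LPS-treated Pim1-/-) had 3 libraries, 12 in all. The mice were C57BL/6 males aged 8 to 10 weeks, and the marrow cells of every group had been grown for 7 d with recombinant human M-CSF at 10 ng/ml, which drives macrophage growth. Pim1, a serine/threonine kinase gene, had lost exons I to V by CRISPR-Cas9 editing in the whole animal, so the cells lacked it throughout their development and not only during the LPS treatment. No label ties a library to a mouse or culture, so the p-values given here measure only the spread between these libraries.

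ISG15 is a small ubiquitin-like protein that type I interferon induces and that cells attach to other proteins, a step called ISGylation. UBA7 is the E1 enzyme that activates it, UBE2L6 the E2 that carries it, and HERC6 the main E3 ligase that attaches it in mouse cells. USP18 removes it again, and separately acts at the interferon receptor as a brake on interferon signalling. The genes are themselves classic interferon-stimulated genes, and macrophages that sense LPS through TLR4 make interferon that acts back on them.

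Of 10 macrophage marker genes, 9 had a row in the files and all 9 had a mean of at least 1 FPKM in every group. Their summed level was 27850 to 29890 FPKM in untreated WT, 14410 to 15300 in untreated Pim1-/-, 31130 to 31590 in LPS-treated WT and 16020 to 17850 in LPS-treated Pim1-/- libraries. Between genotypes 8 of the 9 were lower in untreated and 9 of the 9 in LPS-treated Pim1-/- cells at an adjusted p under 0.1, where 44.2% and 43.4% of tested genes were lower, and the median differences of the list were -0.68 and -0.97 on the log2 scale. Most of the sum is 1 gene, Lyz2, whose untreated means were 26301 (WT) and 13297 FPKM (Pim1-/-). Cd14 (95.7% of WT) and Cd68 (82.3%) differed least in untreated cells, and Fcgr1 (29.1%) and Mertk (29.8%) most. Whether that difference has a part in the results on the ISG15 genes was not tested, and in bulk RNA fewer cells of a type and less RNA per cell cannot be told apart. Markers of other cell types were low: no dendritic, T or NK, mast cell or erythroid marker reached a group mean of 1 FPKM, and the summed levels of the neutrophil and B cell lists stayed at or under 8.22 and 1.59 FPKM. The stromal sum differed between genotypes, at 2.52 to 2.92 FPKM in WT and 0.724 to 0.945 in Pim1-/- untreated cells, and at 3.58 to 4.56 and 0.936 to 1.60 FPKM after LPS. The B cell sum was 1.36 to 1.59 and 0.824 to 1.13 FPKM in untreated WT and Pim1-/- cells and 0.522 to 0.791 and 0.276 to 0.468 after LPS. The neutrophil sum was 1.57 to 1.87 FPKM in untreated WT and 3.23 to 4.21 in untreated Pim1-/- cells, and 6.04 to 8.22 and 3.59 to 6.13 after LPS. In untreated Pim1-/- cells S100a8 was 2.65-fold higher (limma adjusted p = 3.3e-04), while S100a9 was at 0.347 FPKM against 0.345 in WT. After LPS S100a8 was at 3.81 FPKM in WT and 3.85 in Pim1-/- cells, and S100a9 at 3.07 and 0.776. The part of these lists in the results was not tested. Cd3e was listed at 0 in all 4 groups. Pim1, read as a check of the genotype labels, was at 22.9 ± 1.80 and 8.73 ± 0.752 FPKM in untreated WT and Pim1-/- cells. After LPS it was at 645 ± 17.8 and 219 ± 15.6 FPKM (mean ± SD, n = 3). Each value is for the whole gene, so which exons gave the signal in Pim1-/- cells is not known. The source of that signal was not tested.

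Stretches before the gene starts are shown because exact matches to a short interferon response motif were found there for the modifier. RefSeq windows on GRCm38.p6 were given for 4 of the 5 genes; Usp18 had no entry. Each line gives 120 bases that end just before the first annotated base of the gene, 5′ to 3′ on the gene's own strand. For Uba7 the stretch runs from -182 to -63 of its RefSeq start, since GENCODE M21 starts the gene earlier, and the bases from there to the RefSeq start were searched but are not shown. Capitals mark matches to GAAANNGAA, 9 letters of the core of the interferon-stimulated response element (ISRE), a promoter element of many interferon-stimulated genes.
Isg15: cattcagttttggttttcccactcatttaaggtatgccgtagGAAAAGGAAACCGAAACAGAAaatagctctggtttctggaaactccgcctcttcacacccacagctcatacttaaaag
Uba7: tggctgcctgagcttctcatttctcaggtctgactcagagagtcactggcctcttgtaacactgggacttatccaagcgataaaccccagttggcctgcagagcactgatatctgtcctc
Ube2l6: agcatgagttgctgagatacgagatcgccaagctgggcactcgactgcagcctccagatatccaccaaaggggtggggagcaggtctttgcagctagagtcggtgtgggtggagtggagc
Herc6: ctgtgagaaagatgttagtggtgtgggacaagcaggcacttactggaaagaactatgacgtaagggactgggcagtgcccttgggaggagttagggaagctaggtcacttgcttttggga

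The Isg15 stretch lies at chr4:156200819-156200938 on the minus strand, the Uba7 stretch at chr9:107975385-107975504, the Ube2l6 stretch at chr2:84798708-84798827 and the Herc6 stretch at chr6:57580872-57580991, these 3 on the plus strand. Isg15 held 3 matches on its own strand, each overlapping the next, from position -78 to -58 before the start site. In the full 250 bases before their RefSeq starts Uba7, Ube2l6 and Herc6 held no exact match on either strand. Sequences that differ from these letters by 1 base or more were not searched. Among all 32851 windows of that length, 7.13% held at least 1 match. The GAS letters TTCNNNGAA were absent from the windows of these 4 genes and present in 7.02% of all windows. A match describes letters only, and a window without one says nothing of sites outside it.

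Isg15 (chr4:156199424-156200818, minus strand, 2 exons) was the member with the widest range of levels. The untreated WT libraries read 9.61, 11.2 and 11.4 FPKM, and the untreated Pim1-/- libraries 3.83, 2.60 and 3.92 FPKM. After LPS the WT libraries read 2953, 2862 and 2985 FPKM, and the Pim1-/- libraries 1859, 1709 and 1844 FPKM. Every Pim1-/- library lay below every WT library under the same treatment, and every LPS-treated library lay far above every untreated one. The lowest value of all, in untreated Pim1-/- replicate 2, rests on an estimated 74.7 fragments, for which counting error alone gives a coefficient of variation of 11.6%.

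Uba7 (chr9:107975505-107984060, plus strand, 24 exons), the activating enzyme, showed the same order of the 4 groups over a narrower range. Untreated WT libraries were at 16.2, 14.6 and 17.1 FPKM and untreated Pim1-/- libraries at 5.55, 5.55 and 5.86 FPKM. With LPS the values were 92.6, 92.4 and 93.7 FPKM in WT and 38.9, 42.4 and 45.8 FPKM in Pim1-/- cells. The genotypes did not overlap under either treatment. In GENCODE M21 a gene model on the same strand, Gm20661, overlaps the end of Uba7; it has no row in the files, so how reads from the overlap were counted is not known.

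Ube2l6 (chr2:84798828-84810335, plus strand, 4 exons), the carrier enzyme, was the most abundant member before treatment. The untreated values were 29.7, 27.9 and 26.3 FPKM in WT and 30.7, 27.9 and 29.7 FPKM in Pim1-/- cells, and these groups overlapped. After LPS it stood at 374, 368 and 373 FPKM in WT and at 348, 345 and 322 FPKM in Pim1-/- cells, groups that lay close together without overlap.

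Herc6 (chr6:57581000-57664632, plus strand, 23 exons), the ligase, was low in untreated cells, at 3.79, 4.05 and 3.70 FPKM in WT and 3.59, 3.52 and 3.60 FPKM in Pim1-/- libraries. Its LPS-treated values were 142, 143 and 141 FPKM in WT and 124, 126 and 116 FPKM in Pim1-/- cells. The Pim1-/- groups were the lower ones both times, by a small margin. In GENCODE M21 the first part of Herc6 is overlapped on the same strand by Gm45193, which starts before it, and Gm19244 lies within Herc6 on the opposite strand; neither has a row in the files.

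Usp18 (chr6:121245906-121270917, plus strand, 11 exons), the deconjugating protease, was the lowest member before treatment. Untreated WT libraries held 3.02, 2.62 and 3.17 FPKM and untreated Pim1-/- libraries 1.67, 1.30 and 1.81 FPKM. After LPS it reached 739.7, 729.9 and 721 FPKM in WT and 699, 680.3 and 639 FPKM in Pim1-/- cells. The genotypes were apart under both treatments, widely before LPS and narrowly after it. An estimated 87.2 to 134 fragments stand behind each untreated Pim1-/- value. The opposite-strand gene model Gm44148 overlaps Usp18 and has no row in the files.

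**Figure D1:**
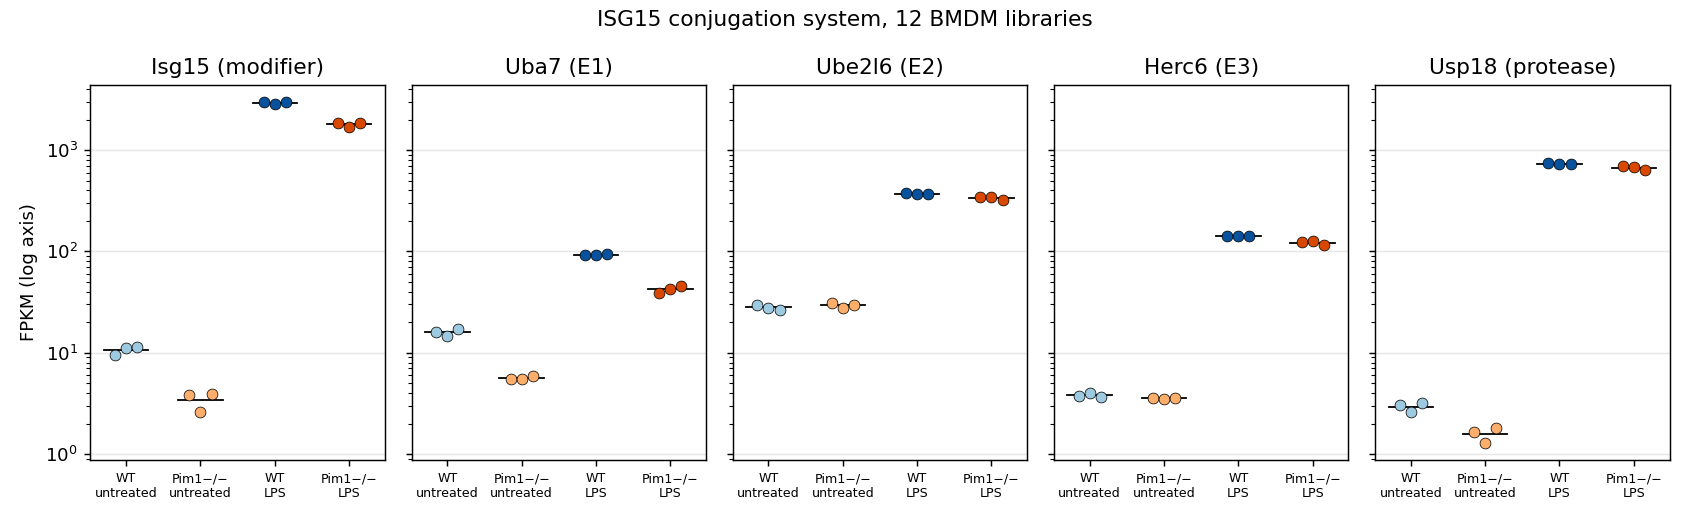
FPKM on a log axis for each of the 5 genes in the 12 libraries, by group (WT and Pim1-/-, untreated and LPS-treated). Points are single libraries and horizontal lines are means of 3. LPS-treated libraries lie above untreated ones for every gene, and Isg15 and Uba7 show a clear step down in Pim1-/- cells under both treatments.

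LPS raised all 5 genes in both genotypes, with the modifier and its protease rising most and the activating enzyme least. Isg15 rose from a mean of 10.7 ± 0.967 to 2933 ± 63.8 FPKM in WT cells, a 273.7-fold ratio, and from 3.45 ± 0.736 to 1804 ± 82.9 FPKM in Pim1-/- cells, a 523-fold ratio (SD, n = 3). Usp18 rose 249-fold in WT cells, from 2.94 ± 0.282 to 730.3 ± 9.33 FPKM, and 422-fold in Pim1-/- cells, from 1.59 ± 0.266 to 673 ± 30.8 FPKM. Herc6 rose 37.0-fold in WT and 34.2-fold in Pim1-/- cells, Ube2l6 13.3-fold and 11.5-fold, and Uba7 5.82-fold and 7.50-fold. On the log2(FPKM + 1) scale on which the genes were tested, and which understates the change of low genes, the response in WT cells was 7.97 ± 0.09 for Isg15, 7.54 ± 0.07 for Usp18, 4.89 ± 0.04 for Herc6, 3.69 ± 0.05 for Ube2l6 and 2.47 ± 0.06 for Uba7 (log2 fold change ± SE). In Pim1-/- cells it was 8.68 ± 0.09, 8.03 ± 0.07, 4.75 ± 0.04, 3.48 ± 0.05 and 2.70 ± 0.06 for the same genes. The 95% intervals of no pair of members overlapped within a genotype.

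The call on a gene required a change of over 2-fold, a limma p below 0.05 and a Benjamini-Hochberg adjusted p below 0.1. All 5 members were called higher after LPS in both genotypes, where 20.1% of the tested genes were called higher in WT and 14.6% in Pim1-/- cells. Their limma adjusted p-values ran from 6.5e-21 for Herc6 to 1.3e-15 for Uba7 in WT cells, and from 4.2e-21 for Usp18 to 6.0e-16 for Uba7 in Pim1-/- cells. The median response of the members was 4.89 in WT and 4.75 in Pim1-/- cells on the log2 scale, beside a median over all tested genes of 0.00 and -0.01.

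Because the modifier and the protease rose so much more than the enzymes, the make-up of the system at the RNA level changed with LPS. FPKM is per transcript length, so levels of different genes can be set side by side. In untreated WT cells Ube2l6 held 45.5 ± 2.61% of the summed FPKM of the 5 genes, Uba7 26.0 ± 1.78%, Isg15 17.5 ± 1.77%, Herc6 6.26 ± 0.387% and Usp18 4.78 ± 0.401% (SD, n = 3). After LPS Isg15 alone held 68.7 ± 0.494% in WT cells, followed by Usp18 at 17.1 ± 0.349% and Ube2l6 at 8.71 ± 0.0624%, and Uba7 had become the smallest at 2.18 ± 0.0259%. Untreated Pim1-/- cells started from a different make-up, with Ube2l6 at 67.4 ± 1.08%, Uba7 at 12.9 ± 0.671% and Isg15 at 7.84 ± 1.29%. After LPS their shares were 60.5 ± 1.64% for Isg15, 22.6 ± 0.971% for Usp18 and 1.43 ± 0.141% for Uba7. The order of the 5 levels after LPS was the same in both genotypes, and no neighbours in that order overlapped between libraries. In untreated Pim1-/- cells the values of Herc6 and Isg15 did overlap, while in untreated WT cells Isg15 was above Herc6 in every library.

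**Figure D2:**
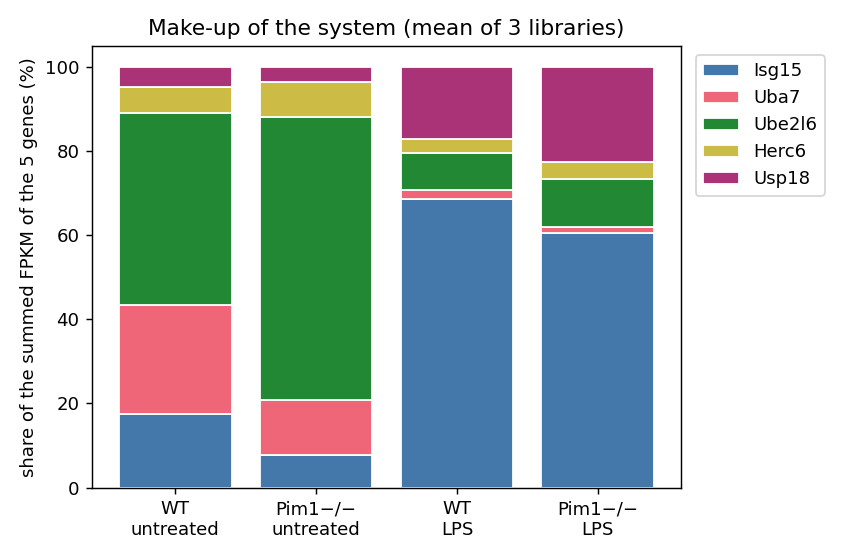
Share of each gene in the summed FPKM of the 5 genes, in percent, as stacked bars for the 4 groups (mean of 3 libraries each). Isg15 takes 17.5% in untreated WT and 7.84% in untreated Pim1-/- cells, and 68.7% and 60.5% after LPS.

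In untreated cells the genotypes differed at the modifier and the activating enzyme, and by less at the protease. Isg15 in Pim1-/- cells stood at 32.2% of its WT mean, a log2 fold change of -1.41 (95% interval -1.60 to -1.21, limma adjusted p = 2.2e-09). Uba7 stood at 35.4%, a change of -1.35 (-1.48 to -1.22, limma adjusted p = 1.9e-11). Usp18 was at 54.2%, a change of -0.61 (-0.75 to -0.46, limma adjusted p = 9.7e-07), which passed the adjusted p without reaching 2-fold. The other enzymes did not pass the test. Ube2l6 was at 105.3% of WT, with a log2 difference of 0.07 (-0.03 to 0.18, limma adjusted p = 0.197). Herc6 was at 93.0%, with a log2 difference of -0.08 (-0.17 to 0.01, limma adjusted p = 0.102).

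Thus 2 of the 5 members were called lower in untreated Pim1-/- cells, where 3.37% of tested genes were. On the adjusted p alone 3 of the 5 were lower and none higher, where 44.2% of tested genes were lower and 34.6% higher. The median difference of the members was -0.61, beside -0.05 over all tested genes. The results for Ube2l6 and Herc6 lie near the threshold and move across it. Ube2l6 passed without untreated WT replicate 1 (limma adjusted p = 0.0611) or untreated Pim1-/- replicate 2 (0.0798), and Herc6 without untreated WT replicate 3 (0.0716) or LPS-treated Pim1-/- replicate 3 (0.0683), and Herc6 also with the replicate number as a block (0.0595). Scaling to 16 reference genes gave Ube2l6 the opposite sign, -0.17 with a limma adjusted p of 0.0025.

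After LPS the genotype difference was carried by the same pair of genes, now with Uba7 the larger. Uba7 was at 45.6% of the WT mean in Pim1-/- cells (42.4 ± 3.44 against 92.9 ± 0.723 FPKM), a log2 fold change of -1.12 (-1.25 to -0.99, limma adjusted p = 1.7e-10). Isg15 was at 61.5% of WT, with a change of -0.70 (-0.90 to -0.50, limma adjusted p = 5.1e-06). The other members differed by less. Herc6 was at 85.9% of WT (122 ± 5.29 against 142 ± 1.22 FPKM), a change of -0.22 with a limma adjusted p of 3.0e-04, while quantile normalization between libraries gave 0.05. Ube2l6 was at 91.0% (338 ± 14.2 against 372 ± 3.45 FPKM), a change of -0.14 with a limma adjusted p of 0.0207, and 0.12 under quantile normalization. Usp18 was at 92.1%, with a difference of -0.12 (-0.26 to 0.03) that did not pass (limma adjusted p = 0.121), and of 0.05 under quantile normalization.

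Of the 5 members 1, Uba7, was called lower after LPS, where 5.15% of tested genes were. On the adjusted p alone 4 of the 5 were lower and none higher, where 43.4% of tested genes were lower and 37.6% higher. All 5 had Pim1-/- libraries that lay wholly below the WT libraries, a pattern in that direction found for 41.8% of tested genes, and in untreated cells 4 of the 5 did, where 44.2% of tested genes did. The median difference of the members was -0.22, beside -0.03 over all tested genes. Usp18 passed the adjusted p when untreated WT replicate 2 (0.0956), untreated Pim1-/- replicate 2 (0.0532) or untreated Pim1-/- replicate 3 (0.0872) was left out of the limma fit, and with the replicate block (0.0779).

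**Figure D3:**
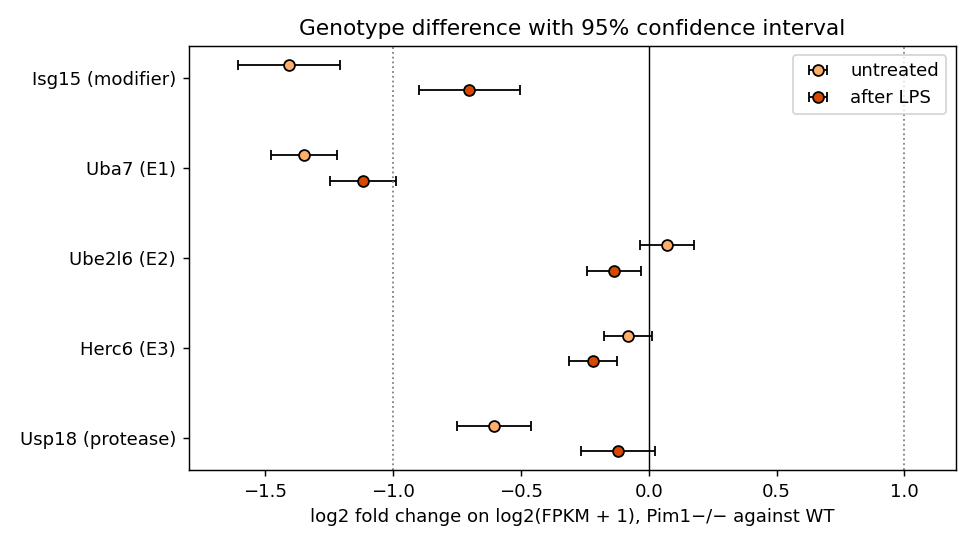
Log2 fold change of Pim1-/- against WT for each of the 5 genes, untreated and after LPS, on log2(FPKM + 1) from limma; bars are 95% confidence intervals and dotted lines mark 2-fold. Isg15 and Uba7 lie near or past -1 when untreated, and Uba7 still does after LPS. The small values of Ube2l6, Herc6 and Usp18 after LPS change sign under another scaling of the libraries.

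The scaling of the libraries bears on these small differences, because the summed FPKM of a library differed between groups, from 452511 to 489710 in untreated cells, 713307 to 743912 in LPS-treated Pim1-/- cells and 837585 to 849323 in LPS-treated WT cells. Under the scalings tried, Isg15 and Uba7 were lower in Pim1-/- cells each time. Median-ratio scaling adds little as a check, since its library factors on the deposited values ran only from 0.986 to 1.014. Isg15 ranged from -1.64 to -1.41 in untreated cells and from -0.83 to -0.50 after LPS. Uba7 ranged from -1.59 to -1.33 and from -1.24 to -0.765, and after LPS it was under 2-fold with quantile normalization (-0.765) and with libraries scaled to equal sums (-0.91). Usp18 was lower in untreated cells under each scaling, from -0.80 to -0.61. Scaling to equal sums moved the median of all genes by 0.15 in the LPS-treated genotype comparison, and on that scale Ube2l6 was at 0.07, Usp18 at 0.09 and Herc6 at -0.01. On the limma adjusted p, 2 of the 16 reference genes were lower and 9 higher in untreated Pim1-/- cells. After LPS 3 were lower and 11 higher. Over all tested genes 44.2% were lower and 34.6% higher untreated, and 43.4% and 37.6% after LPS. Scaling to the reference genes moved the median of all genes by -0.21 in untreated and -0.10 in LPS-treated genotype comparisons. Against most of that list, Actb was lower after LPS, at 2972 FPKM in Pim1-/- against 8063 FPKM in WT cells. Its log2 fold change of -1.44 was larger than that of any member.

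**Figure D4:**
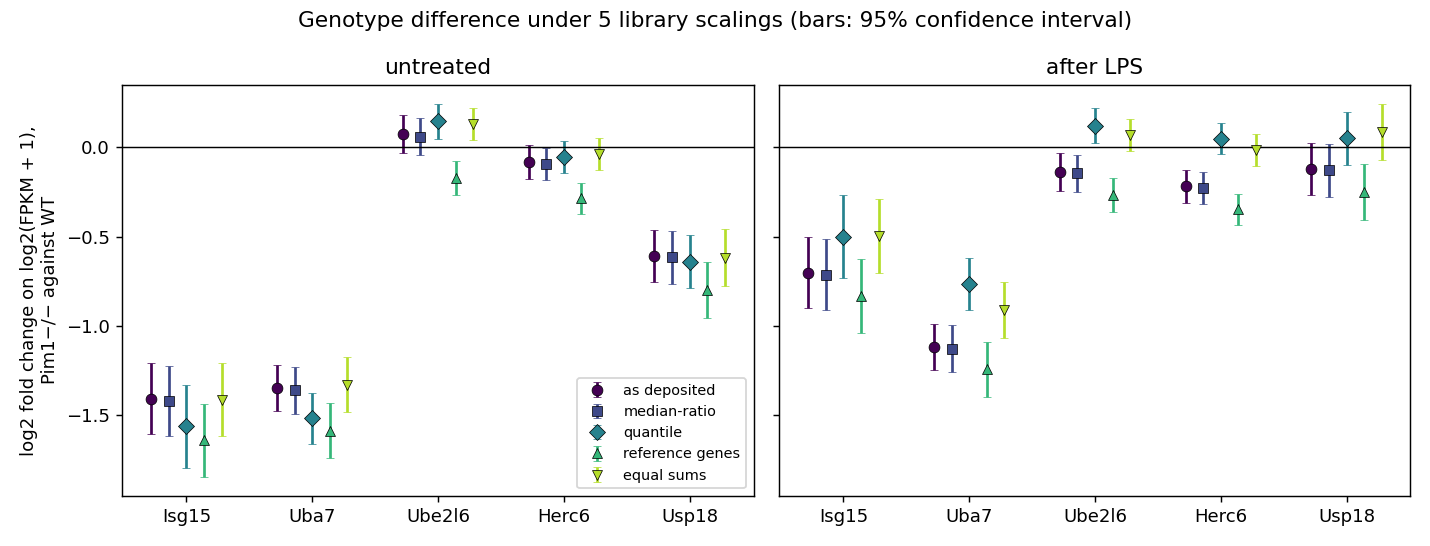
Log2 fold change of Pim1-/- against WT for the 5 genes under 5 scalings of the libraries, in untreated cells (left) and after LPS (right). Bars are 95% confidence intervals. Median-ratio scaling moved the deposited values little, since its library factors were all near 1. Isg15 and Uba7 are below 0 under every scaling shown, whereas Ube2l6 changes sign in both panels and Herc6 and Usp18 change sign after LPS.

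The LPS responses of the genotypes were then set against each other in the same fit. Isg15 rose by 0.71 more in Pim1-/- than in WT cells on the log2 scale (0.43 to 0.99, limma adjusted p = 2.5e-04), so its deficit was smaller after LPS than before it, although the absolute level stayed lower. Usp18 rose by 0.49 more (0.28 to 0.69, limma adjusted p = 4.4e-04) and Uba7 by 0.23 more (0.05 to 0.41, limma adjusted p = 0.0282). Ube2l6 rose by less in Pim1-/- cells, with a difference of -0.21 (-0.36 to -0.06, limma adjusted p = 0.0172). Herc6 had a difference of -0.14 (-0.27 to -0.01, limma adjusted p = 0.0658). None of the 5 differences reached 2-fold, a size at which 6.67% of tested genes were called, and all 5 passed on the adjusted p alone, as 68.5% of tested genes did. The response was larger in Pim1-/- cells for 3 members and smaller for 2, where it was larger for 32.7% and smaller for 35.8% of tested genes.

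The differences of Isg15, Usp18 and Uba7 kept their sign and passed the adjusted p under every scaling tried, with Isg15 between 0.71 and 1.06, Usp18 between 0.49 and 0.70 and Uba7 between 0.23 and 0.75. The difference of Ube2l6 did not pass under quantile normalization (-0.02), equal sums (-0.06) or reference genes (-0.09), and that of Herc6 turned to 0.10 under quantile normalization and 0.02 under equal sums. Without untreated WT replicate 1 or 3, LPS-treated WT replicate 1 or 2, or LPS-treated Pim1-/- replicate 3, the limma adjusted p of Herc6 lay between 0.106 and 0.145.

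Ratios between members within a library do not depend on how libraries are scaled. For each RNA of Isg15, untreated Pim1-/- cells held 3.32 times as much Ube2l6 RNA as WT cells did, 2.93 times as much Herc6 RNA and 1.70 times as much Usp18 RNA, and the libraries of the genotypes did not overlap. After LPS the same ratios were 1.48, 1.40 and 1.50 times the WT ratio, again without overlap. Uba7 moved otherwise. In untreated cells its ratio to Isg15 was 1.12 times the WT value, with overlap (exact two-sided permutation test p = 0.7), so the activating enzyme and the modifier were lower together. After LPS the ratio of Uba7 to Isg15 was 0.741 times the WT value, without overlap. With 3 libraries against 3 the exact permutation test cannot go below 0.10, the p of each of these comparisons without overlap, and the Benjamini-Hochberg value over the 16 ratios tested was 0.114.

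The ubiquitin pathway has a counterpart for each step, which puts the levels in context. Ube2l3, a ubiquitin E2 related to Ube2l6, was more abundant than Ube2l6 in untreated cells, with a mean Ube2l6 to Ube2l3 ratio of 0.366 in WT and 0.368 in Pim1-/- libraries. After LPS the ratio was 3.28 in WT and 3.46 in Pim1-/- libraries, and the Pim1-/- libraries (3.43 to 3.50) lay above the WT libraries (3.21 to 3.36). Uba1, the main ubiquitin E1, was itself lower in Pim1-/- cells, at 52.4 ± 3.33 against 99.2 ± 0.115 FPKM after LPS (log2 fold change -0.91) and with a change of -0.33 when untreated. The ratio of Uba7 to Uba1 was 0.321 in WT and 0.144 in Pim1-/- cells before LPS, and 0.936 and 0.808 after it, without overlap either time. Isg15 RNA was 0.0190 of the level of the polyubiquitin gene Ubb in untreated WT cells and 0.00740 in untreated Pim1-/- cells, and 4.39 and 2.45 times that level after LPS. Herc3, another member of the HERC ligase family, was close to Herc6 before treatment (Herc6 to Herc3 ratios of 1.53 and 1.08 in WT and Pim1-/- cells) and far below it afterwards (68.9 and 45.0).

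Among 11 ubiquitin counterparts of the members, 6 were lower and 3 higher in untreated Pim1-/- cells on the limma adjusted p, and 5 lower and 4 higher after LPS, with none called by genotype. These counts lie near the shares of all tested genes, which were 44.2% lower and 34.6% higher in untreated cells and 43.4% lower and 37.6% higher after LPS. Their median LPS response was 0.26 in WT and 0.39 in Pim1-/- cells. Among those called after LPS was Uba6, the second ubiquitin E1, at 1.62 and 1.36 in WT and Pim1-/- cells on the log2 scale.

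**Figure D5:**
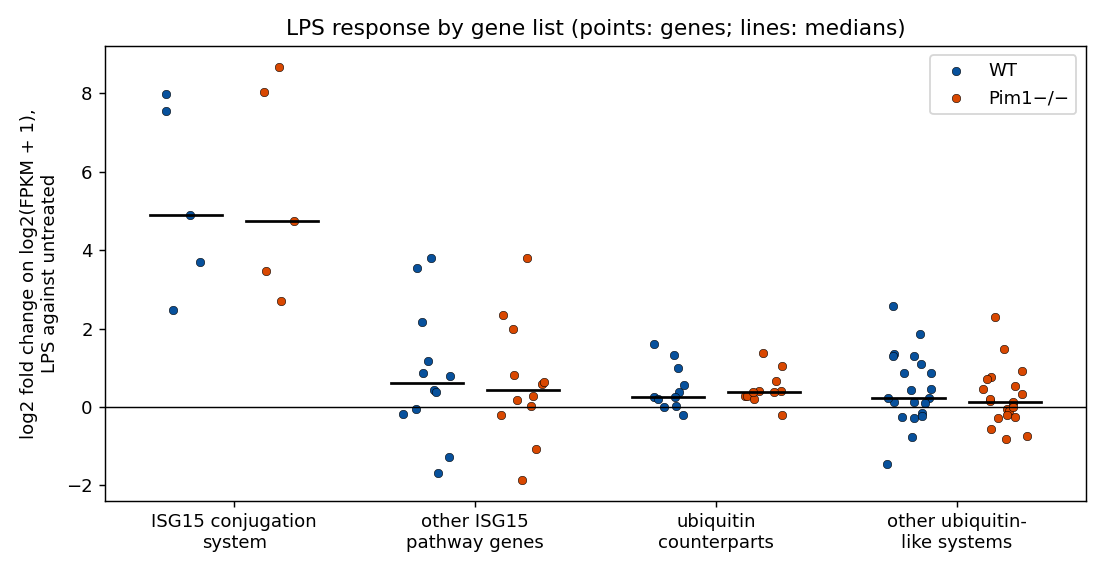
Log2 fold change after LPS, on log2(FPKM + 1), for the genes of 4 lists in WT and Pim1-/- cells; points are genes and lines are medians. The 5 ISG15 conjugation genes have medians of 4.89 and 4.75, and the ubiquitin counterparts 0.26 and 0.39.

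Other genes that act on or with ISG15 moved less uniformly. Of 13 such genes 12 were tested. In untreated Pim1-/- cells 5 were lower, 3 higher and 4 did not pass on the limma adjusted p, and after LPS 8 were lower, 3 higher and 1 did not pass, where 44.2% of tested genes were lower and 34.6% higher in untreated cells and 43.4% lower and 37.6% higher after LPS. Their median genotype difference was -0.07 in untreated cells and -0.32 after LPS, beside -0.05 and -0.03 over all tested genes. Stat2, which transmits type I interferon signals and holds USP18 at the receptor, was lower in Pim1-/- cells under both treatments, at 5.39 ± 0.313 against 12.3 ± 0.306 FPKM untreated (-1.06) and 88.4 ± 5.46 against 183 ± 4.87 FPKM after LPS (-1.04). Itgal, the alpha subunit of LFA-1, an integrin reported to bind extracellular ISG15, stood at 6.78 ± 0.428 and 6.98 ± 0.291 FPKM in untreated Pim1-/- and WT cells and at 38.7 ± 3.61 and 92.2 ± 1.05 FPKM after LPS (-1.24). Its LPS response was smaller in Pim1-/- cells by a log2 difference of -1.20, opposite in sign to that of Isg15.

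Trim25, an E3 ligase linked to both ubiquitin and ISG15, differed by less than either after LPS, at 79.5 ± 4.20 against 113 ± 2.23 FPKM (-0.51). When untreated its change of -0.32 lay between those of Itgal (-0.04) and Stat2 (-1.06). LPS raised Trim25 by 2.18 in WT and 1.99 in Pim1-/- cells on the log2 scale, and Arih1, a ligase of the RBR class, by 1.17 in WT and 0.80 in Pim1-/- cells. Skp2, an F-box protein that has been linked to the turnover of USP18, fell by 1.68 in WT and by 1.86 in Pim1-/- cells. The protease gene Usp2 fell by 1.28 in WT and by 1.06 in Pim1-/- cells. Both ended below 1 FPKM, where the log2(FPKM + 1) scale understates the change. By the ratio of means Skp2 fell to 11.8% of its untreated level in WT and to 13.4% in Pim1-/- cells. Usp2 fell to 5.17% in WT and to 20.6% in Pim1-/- cells.

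The genes through which interferon reaches the system were also read. Ifnb1, the gene of IFN-β, was listed at 0 in all untreated libraries. After LPS it was at 8.50 ± 0.906 FPKM (7.80 to 9.52) in WT and 15.5 ± 1.27 FPKM (14.5 to 17.0) in Pim1-/- cells. That is a log2 difference of 0.80 (limma adjusted p = 3.9e-08), opposite in sign to Isg15 and Uba7. It is also opposite to the paper, which reported less IFN-β mRNA by RT-qPCR and less secreted IFN-β by ELISA in LPS-treated Pim1-/- BMDMs. The reason for that difference was not tested. Irf7, an interferon-induced factor that amplifies the response, was lower in Pim1-/- cells under both treatments (-1.71 untreated and -1.05 after LPS). Irf9, an interferon regulatory factor, differed by -0.53 in untreated cells and by -0.01 after LPS. Irf1 (-1.28 and -0.37), Tyk2 (-0.67 and -0.37) and Ifnar1, a subunit of the interferon receptor (-0.37 and -1.26), were lower in both. Of these 6 genes, 5 were lower in untreated cells on the limma adjusted p, and after LPS 4 were lower, 1 higher and 1 did not pass, where 44.2% and 43.4% of tested genes were lower.

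A set of 14 genes whose proteins have been reported as ISG15 targets was read in the same way. In untreated Pim1-/- cells 10 were lower and 3 higher on the limma adjusted p, and after LPS 10 were lower and 2 higher, with medians of -0.20 and -0.38. Over all tested genes 44.2% were lower and 34.6% higher in untreated cells, and 43.4% lower and 37.6% higher after LPS, with medians of -0.05 and -0.03. Among those called after LPS were Mx1, an antiviral GTPase (-1.70), and Jak1, a kinase of the interferon receptor (-1.30). Mx1 was also called in untreated cells (-1.20). There it was at 0.0457 FPKM in Pim1-/- against 1.41 FPKM in WT cells, levels at which the log2(FPKM + 1) scale understates the change. By the ratio of means Mx1 in Pim1-/- cells was at 3.25% of WT untreated and at 30.8% after LPS.

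Genes whose pattern over the 12 libraries was most like that of a member were found by Pearson's r on log2(FPKM + 1), given as a description. The libraries fall into untreated and LPS-treated sets, which dominate r, and 97 (for Uba7) to 397 (for Herc6) of 10576 other genes had r above 0.99. Nearest to Isg15 were Atf3, Nlrp3 and Cmpk2 (r = 0.9997, 0.9996 and 0.9995), to Uba7 Ptprj, Stau1 and Fyb (0.9989, 0.9986 and 0.9984), to Ube2l6 Cd69, Malt1 and Cd14 (0.9997, 0.9995 and 0.9994), to Herc6 Il1a, Cd69 and Cd40 (0.9999, 0.9998 and 0.9998), and to Usp18 Parp9, Xaf1 and Nudt9 (0.9996, 0.9995 and 0.9995). Cd69 was near both Ube2l6 and Herc6, and no other gene was shared among these sets.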

How the data were processed

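RNA-seq values came from 12 libraries of BMDMs, 3 in each of 4 groups defined by genotype and treatment in the labels. The authors prepared stranded mRNA libraries and, per the submitters' processing notes, used bcl2fastq 2.20.0.422, cutadapt 1.18, TopHat2 2.0.13 and Cuffdiff 2.2.1 with mm10, while the paper's methods name a rat genome. The values are deposited as 1 column a library with no unit in the header, and were read as FPKM from the use of Cuffdiff. For the annotation and the strand setting of the counting: not given in the sources used here. FPKM holds no counts, so fragments were estimated from the smallest values of single-transcript genes over 3000 nt, which put 37405200 to 48371800 fragments in genes per library; this estimate covers counting error only. No column of the files was without a sample.

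The deposited values were not rescaled. The 10581 of 23997 genes that reached 1 FPKM in 3 or more of the 12 libraries were fitted as log2(FPKM + 1) with limma 3.58.1 in R 4.3.3, with 4 group means in a single fit and an empirical Bayes trend. P-values were adjusted by Benjamini-Hochberg over all genes tested. The call of more than 2-fold, p under 0.05 and adjusted p under 0.1 follows the thresholds of the study's methods. On simulated data for LPS-treated Pim1-/- against WT cells, 200 of 200 genes changed 3-fold were recovered with 0 false calls among 10581 genes. The simulated noise was normal and independent between genes, and the lowest genes were left unchanged. As the change was above the 2-fold threshold, the simulation says nothing of smaller differences. Within-library ratios were compared with an exact two-sided permutation test. Coordinates are those of GENCODE M21 on GRCm38, promoter sequences those of RefSeq on GRCm38.p6.

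Named genes were the 5 members, Pim1, the genes of the pathway, target, ubiquitin and interferon lists that were called in any comparison or are counterparts of a member, 3 like genes per member, and Actb and the cell type markers given by name, chosen after their values were seen; some genes that this rule names are not reported here. The members and lists were chosen with earlier results of these data known. Alternatives were another pseudocount, other filters, scalings and calls, fits of only the groups compared, without a trend or with a replicate block, and leaving out each library; scaling to equal sums was chosen after seeing the data. Pearson's r between replicates was 0.9958 to 0.9978 across genes, which are not independent replicates, and no pair of libraries was counted as 1.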

Additional observations from a re-analysis of the deposited data

Results flagged for a closer look

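The LPS response of each of the 5 genes differed between the genotypes on the limma interaction term, adjusted by Benjamini-Hochberg over all genes tested. Isg15 (0.71), Usp18 (0.49) and Uba7 (0.23) rose more in Pim1-/- than in WT cells on the log2(FPKM + 1) scale. Ube2l6 (-0.21) and Herc6 (-0.14) rose less, and for Herc6 the sign turned under quantile normalization and equal sums. On the adjusted p alone, 68.5% of tested genes differed in their LPS response, 32.7% with a larger and 35.8% with a smaller response in Pim1-/- cells.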

How the results depend on the processing

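The 5 members were called after LPS in both genotypes, and Isg15 and Uba7 in untreated cells, under each alternative that kept the fold threshold. In LPS-treated cells the members called by genotype were 0 under quantile normalization and equal sums, and 4 without a fold threshold at an adjusted p of 0.1 or 0.05. Members called for a different LPS response were 1 under quantile normalization, 5 at 0.1 and 4 at 0.05. Over all genes, dropping the fold threshold gave 8333 and 7904 calls (at 0.1 and 0.05) against 823 in untreated cells, 8565 and 8194 against 916 after LPS, 9645 and 9453 against 3686 for LPS in WT, 9222 and 8954 against 2649 for LPS in Pim1-/- cells, and 7245 and 6657 against 706 for the difference in response. A pseudocount of 0.1 gave 1442 calls after LPS and 1075 for the difference in response.

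Signs turned for Ube2l6 in untreated cells under reference genes (-0.17), after LPS for Ube2l6 (0.12), Herc6 (0.0493) and Usp18 (0.0502) under quantile normalization and for Ube2l6 (0.0691) and Usp18 (0.0862) under equal sums, and for the difference in response of Herc6 (0.105 and 0.0245 under these). The cause was not tested. Leaving out 1 library kept every sign of the members, with 791 to 861 genes called in untreated cells and 888 to 1005 after LPS, and with Isg15 between -1.49 and -1.26 untreated and -0.72 and -0.66 after LPS. Replicate numbers are shared by the groups but were not taken to pair samples. Over the tested genes, deviations of same-numbered libraries correlated by under 0.1 in at least 1 pair of each comparison (from -0.05 to 0.33). Between treatments of Pim1-/- cells the lowest of these was 0.0999, and each library there correlated best with its own number. Over 3646 genes at 10 FPKM or more in every library all 3 pairs exceeded 0.1, and each library correlated best with its own number, between untreated genotypes and between treatments of Pim1-/- cells, a hint from the data and not the design; the other comparisons did not show this. With the replicate number as a block, limma adjusted p-values of Herc6 untreated (0.0595) and Usp18 after LPS (0.0779) passed 0.1, and no other member's call changed. FPKM without counts limits what can be said of Isg15 and Usp18 in untreated Pim1-/- cells, where few fragments were estimated.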

Other observations

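Other ubiquitin-like modifier systems (NEDD8, SUMO, UFM1, URM1, ATG12 and FAU, with their enzymes) were read in the same way. Of 22 such genes 21 were tested, and none was called by genotype under either treatment. On the limma adjusted p, 5 were lower and 10 higher in untreated Pim1-/- cells, and 7 were lower and 7 higher after LPS, where all tested genes had 44.2% lower and 34.6% higher and 43.4% lower and 37.6% higher. Their median LPS response was 0.24 in WT and 0.12 in Pim1-/- cells on the log2 scale, with 6 called higher in WT and 2 in Pim1-/- cells, where 20.1% and 14.6% of tested genes were. Among those called in both genotypes was Ube2f, an E2 for NEDD8 (2.57 and 2.29). Called higher in WT cells alone by these thresholds were Nae1, Ube2m, Sumo2 and Ufm1, at 1.09 to 1.36 in WT cells.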
